A study of Rattus norvegicus with 30 samples.

Results

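The 9 listed genes that mark liver sinusoidal and vascular endothelium were followed across rat livers exposed to DE71, a commercial mixture of polybrominated diphenyl ethers (PBDE). They were found by the gene symbol of the array platform's annotation, and 8 of the 9 (Fcgr2b, Stab2, Lyve1, Kdr, Mrc1, Tek, Pecam1 and Vwf) had a probe set, out of 14217 genes with one in the whole series. No probe set was annotated to Cdh5, the junctional cadherin of endothelium, which is not analysed here. Lyve1 and Kdr had 2 probe sets each, so the 8 genes were read by 10 probe sets, and each gene was represented by its probe set with the highest mean over all arrays.

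The Wistar/Han rats formed 6 groups of 5 livers, each liver on its own Affymetrix Rat Genome 230 2.0 array. Adult PBDE males and adult control males were killed at week 13 of the study part that began at weaning, and male and female pups of both doses on postnatal day 22. PBDE animals received 50 mg/kg DE71 by gavage in corn oil at 5 ml/kg, through their dams from gestation day 6 and directly as pups until day 21, on 7 days a week and, in the animals kept on after weaning, on 5 days a week. Control animals came from the groups given 0 mg/kg, and within a dose group the pups, like the adults, each came from a different dam. In the order used below the groups were adult PBDE males, adult control males, male PBDE pups, male control pups, female PBDE pups and female control pups. No adult females were included.

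Sinusoidal endothelial cells line the liver's capillaries, have open pores and no closed basement membrane, and clear waste molecules and small immune complexes from blood through scavenger and Fc receptors. Fcgr2b is the inhibitory IgG receptor, which in rodent liver is found mostly on these cells, and Stab2 and Lyve1 both bind hyaluronan. Mrc1, the mannose receptor, is made by sinusoidal endothelium and by macrophages, Kdr is the main signalling receptor for VEGF, Tek is the angiopoietin receptor Tie2, Pecam1 is an adhesion molecule of endothelial junctions and blood cells, and Vwf is the clotting glycoprotein stored by endothelium of larger vessels and by megakaryocytes.

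All levels are log2 values from RMA, a method that adjusts, normalises and summarises the probes of a set, so a difference of 1 is 2-fold. Array medians lay between 5.72 and 5.77, and each array's mean correlation with its own group between 0.988 and 0.994. The lowest belonged to adult PBDE male replicate 5, and calls of the listed genes in adult males that change without this array are also given without it. None of 11 measured hepatocyte markers lay below the median probe set (5.75), and neither did the main probe set of any listed gene. The second Kdr probe set did so on all 30 arrays. The array names fall into 2 sets: male PBDE, male control and female control pups in one, and female PBDE pups with both adult groups in the other. PBDE and control arrays thus lie within 1 set for male pups and for adults, whereas for female pups set and dose cannot be told apart. In a whole liver, fewer endothelial cells and less RNA per endothelial cell cannot be told apart either.

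**Figure D1:**
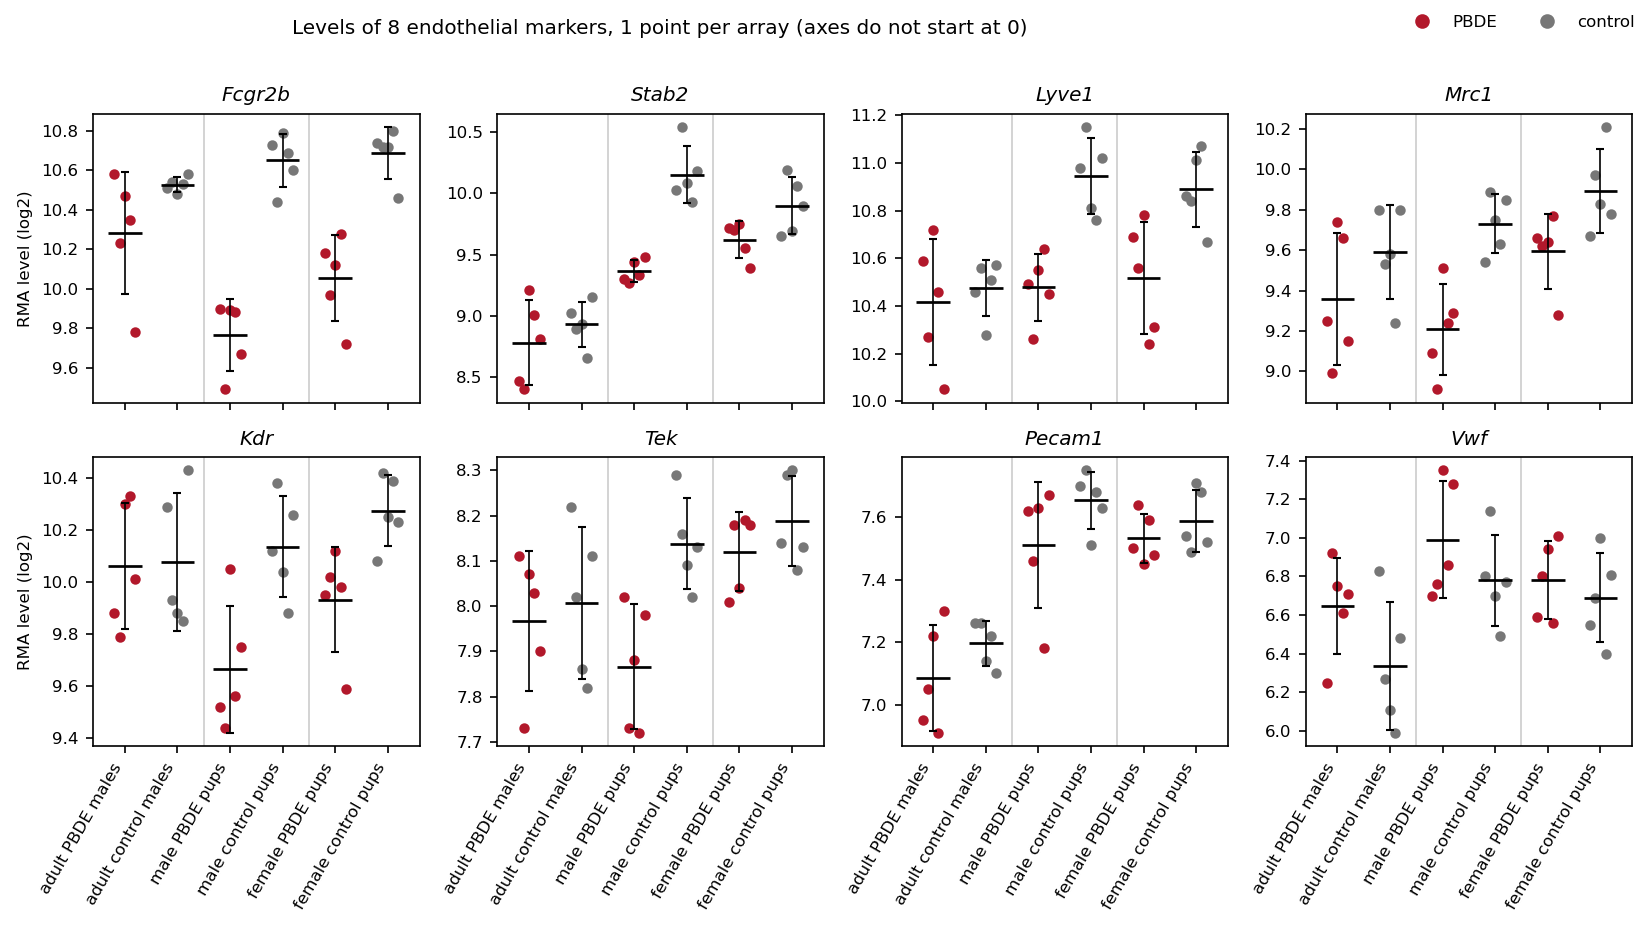
RMA level (log2) of the 8 measured endothelial markers, 1 panel per gene and 1 point per array, in the 6 groups of 5 arrays. Horizontal lines are group means and bars 1 SD, and each panel has its own axis range, which does not start at 0. Fcgr2b and Stab2 in male pups show PBDE points wholly below control points.

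In male pups, the PBDE livers had lower levels of 3 of the endothelial receptors. Fcgr2b, Stab2 and Lyve1 fell, by 1.85-fold, 1.73-fold and 1.38-fold, and Pecam1 and Vwf did not pass the test. Mrc1, Kdr and Tek had negative changes that missed the false discovery rate of 0.01 that the study set for pups. Thus 3 of 8 genes passed, all lower, while 3.26% of all 14217 genes passed as lower. The median change was -0.47 over the 8 genes and 0.02 over all genes, and 7 of the 8 changes were negative. The arrays of the groups did not overlap, PBDE below control, for 5 of the 8 genes (Fcgr2b, Stab2, Lyve1, Mrc1 and Tek), and for 5.13% of all genes.

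Among the scavenger and Fc receptors, Fcgr2b read 9.90, 9.49, 9.89, 9.88 and 9.67 in the 5 male PBDE pups, against 10.73, 10.44, 10.79, 10.69 and 10.60 in the 5 male control pups. Every PBDE pup lay more than 0.5 below the lowest control pup. The change was -0.89 ± 0.12 (SE, n = 5 each, limma adjusted p = 5.08e-06), and its adjusted p stayed between 3.07e-07 and 1.71e-04 over 20 alternative analyses. Stab2, the hyaluronan scavenger stabilin-2, read 9.30, 9.27, 9.44, 9.33 and 9.48 in male PBDE pups, against 10.03, 10.54, 10.08, 9.93 and 10.18 in male control pups. The PBDE pups were tightly grouped (SD 0.094, against 0.24 in controls) and did not overlap the controls. The change was -0.79 ± 0.13 (SE, n = 5 each, limma adjusted p = 1.75e-04; 1.17e-04 to 0.00101 over the alternatives).

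Lyve1, a hyaluronan receptor shared with lymphatic endothelium, read 10.49, 10.26, 10.55, 10.64 and 10.45 in male PBDE pups, against 10.98, 11.15, 10.81, 10.76 and 11.02 in male control pups. The groups did not overlap, with a gap of about 0.1 between the nearest arrays. The change was -0.47 ± 0.11 (SE, n = 5 each, limma adjusted p = 0.0071). The second Lyve1 probe set gave the larger change of -0.66 ± 0.11 (adjusted p = 1.38e-04), again without overlap, and the deviations of the 2 probe sets from their group means correlated at 0.932 over 30 arrays. The call from the main probe set was lost without male control replicate 1, 2 or 5, without male PBDE replicate 1, 2, 3 or 5, without shrinkage of the spread, and with an RNA quality covariate, at adjusted p between 0.0118 and 0.0276.

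Of the 8 genes, 4 (Stab2, Lyve1, Kdr and Mrc1) matched the promoter table by symbol, and Fcgr2b, Pecam1, Tek and Vwf did not. The upstream windows of the called pair with an entry, Stab2 and Lyve1, are shown because both genes fell in male PBDE pups. They are the 250 bases before the start used by the RefSeq promoter entry in build GRCr8, which for Stab2 is not the start of the gene span. Both are on the minus strand, at chr7:23320563-23320812 for Stab2 and chr1:174410978-174411227 for Lyve1. Capitals mark CAGGAA, a core motif of ETS factors, the family to which the endothelial regulators Erg and Fli1 belong.
Stab2 upstream window: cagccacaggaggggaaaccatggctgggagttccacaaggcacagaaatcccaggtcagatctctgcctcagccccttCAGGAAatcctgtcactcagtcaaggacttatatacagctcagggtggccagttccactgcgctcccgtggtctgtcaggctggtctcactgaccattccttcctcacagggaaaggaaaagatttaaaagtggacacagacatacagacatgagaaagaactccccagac
Lyve1 upstream window: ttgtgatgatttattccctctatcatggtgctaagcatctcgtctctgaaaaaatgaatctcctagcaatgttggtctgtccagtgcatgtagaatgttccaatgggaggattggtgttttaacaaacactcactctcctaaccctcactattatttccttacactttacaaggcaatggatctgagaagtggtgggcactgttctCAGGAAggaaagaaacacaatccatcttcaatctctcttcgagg
The start used for Stab2 lies inside the span of the gene, chr7:23136938-23342633, so its window lies within that span and not upstream of it. CAGGAA, read on both strands, occurred 1 time in each window, its first base 171 bases before the start in Stab2 and 44 bases before it in Lyve1. It was present in 24.7% of 33469 windows of the same length. Neither window held the other searched ETS core, CCGGAA (12.6% of windows), the GATA motif AGATAA (10.3%) or GCGTG, the core bound by the aryl hydrocarbon receptor (25.9%). Of the uncalled genes with a window, Kdr held 1 CCGGAA and 2 GCGTG, and Mrc1 held 2 CAGGAA. These matches are descriptions of letters, and no binding was measured.

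The mannose receptor Mrc1 read 9.09, 8.91, 9.51, 9.24 and 9.29 in male PBDE pups, against 9.54, 9.89, 9.75, 9.63 and 9.85 in male control pups. The highest PBDE pup, replicate 3, lay just below the lowest control pup. The change was -0.52 ± 0.14 (SE, n = 5 each), with a limma adjusted p of 0.0114, just above the threshold of 0.01. Kdr read 9.52, 9.44, 10.05, 9.56 and 9.75 in male PBDE pups, against 10.12, 10.38, 10.04, 9.88 and 10.26 in male control pups. Replicate 3 of the PBDE pups lay among the controls, and the change of -0.47 ± 0.13 did not pass (adjusted p = 0.0178). Without that pup both genes passed, Mrc1 at -0.60 (adjusted p = 0.00699) and Kdr at -0.57 (adjusted p = 0.00557). It was the highest PBDE array for both genes. Over 20 alternatives the limma adjusted p lay between 0.00609 and 0.044 for Mrc1 and between 0.00157 and 0.0619 for Kdr. The lowest Kdr value came from averaging its main probe set with the dim second one, at a smaller change of -0.35.

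Tek averaged 7.86 ± 0.14 in male PBDE pups, against 8.14 ± 0.10 in male control pups (SD, n = 5 each). The highest PBDE and the lowest control array were nearly equal (8.02 each), and the change of -0.27 ± 0.08 did not pass (limma adjusted p = 0.0319). Pecam1 averaged 7.51 ± 0.20 in male PBDE pups, against 7.65 ± 0.092 in male control pups, with overlapping arrays (-0.14 ± 0.08, adjusted p = 0.32). Vwf was the single gene with a positive value, at 6.99 ± 0.30 in male PBDE pups, against 6.78 ± 0.24 in male control pups (0.21 ± 0.16, adjusted p = 0.466).

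In female pups, Fcgr2b fell by 1.55-fold, and it was the 1 of 8 genes to pass, beside 2.18% of all genes that passed as lower. It read 10.18, 9.97, 10.12, 10.28 and 9.72 in female PBDE pups, against 10.74, 10.72, 10.72, 10.80 and 10.46 in female control pups. The groups did not overlap, as for 4.38% of all genes in this direction, and replicate 5 was the lowest of both. The change was -0.63 ± 0.12 (SE, n = 5 each, limma adjusted p = 5.15e-04; 5.32e-05 to 0.00647 over 20 alternatives). The median change was -0.29 over the 8 genes and 0.02 over all genes, and 7 of 8 were again negative. Since female PBDE pups stand in the other array set than their controls, the part of the set in these values was not tested.

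Lyve1 read 10.69, 10.56, 10.78, 10.24 and 10.31 in female PBDE pups, against 10.86, 10.84, 11.01, 11.07 and 10.67 in female control pups. The upper PBDE pups overlapped the lower controls, and the change of -0.37 ± 0.11 did not pass (limma adjusted p = 0.0381). Its second probe set, whose groups did not overlap, passed at -0.46 ± 0.11 (adjusted p = 0.00692), so the 2 probe sets differ in the call and not in the direction. Stab2 averaged 9.62 ± 0.15 in female PBDE pups and 9.90 ± 0.23 in female control pups (SD, n = 5 each), with overlap (-0.28 ± 0.13, adjusted p = 0.241). Kdr (-0.34 ± 0.13, adjusted p = 0.116) and Mrc1 (-0.30 ± 0.14, adjusted p = 0.211) did not pass either. Tek, Pecam1 and Vwf had values of -0.07, -0.06 and 0.09, each at an adjusted p above 0.7.

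Whether the sexes responded differently was tested with the sex by dose interaction, male minus female. No member passed in limma, and neither did any of the 14217 genes (0%). At an unadjusted p under 0.05 there was 1 member, Stab2, with a difference of -0.51 ± 0.19 (adjusted p = 0.89). For Fcgr2b the interaction was -0.25 ± 0.16 and for Lyve1 -0.09 ± 0.16. The Stab2 call in males and its absence in females are therefore not a shown difference between the sexes. Of the 4 groups in this interaction, 1 lies in the other array set.

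Between male and female control pups, which share an array set, none of 8 genes was called by limma, beside 0.0422% of all genes. At an unadjusted p under 0.05 there were 0 of the 8. Fcgr2b was 10.65 ± 0.13 in male control pups and 10.69 ± 0.13 in female control pups, and Stab2 was 10.15 ± 0.24 in male control pups and 9.90 ± 0.23 in female control pups (SD, n = 5 each). Between male and female PBDE pups, where set and sex cannot be told apart, none of 8 was called (0.0563% of all genes were). At an unadjusted p under 0.05 there were 3: Mrc1 (-0.39 ± 0.14), Fcgr2b (-0.29 ± 0.12) and Tek (-0.26 ± 0.08), male minus female.

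**Figure D2:**
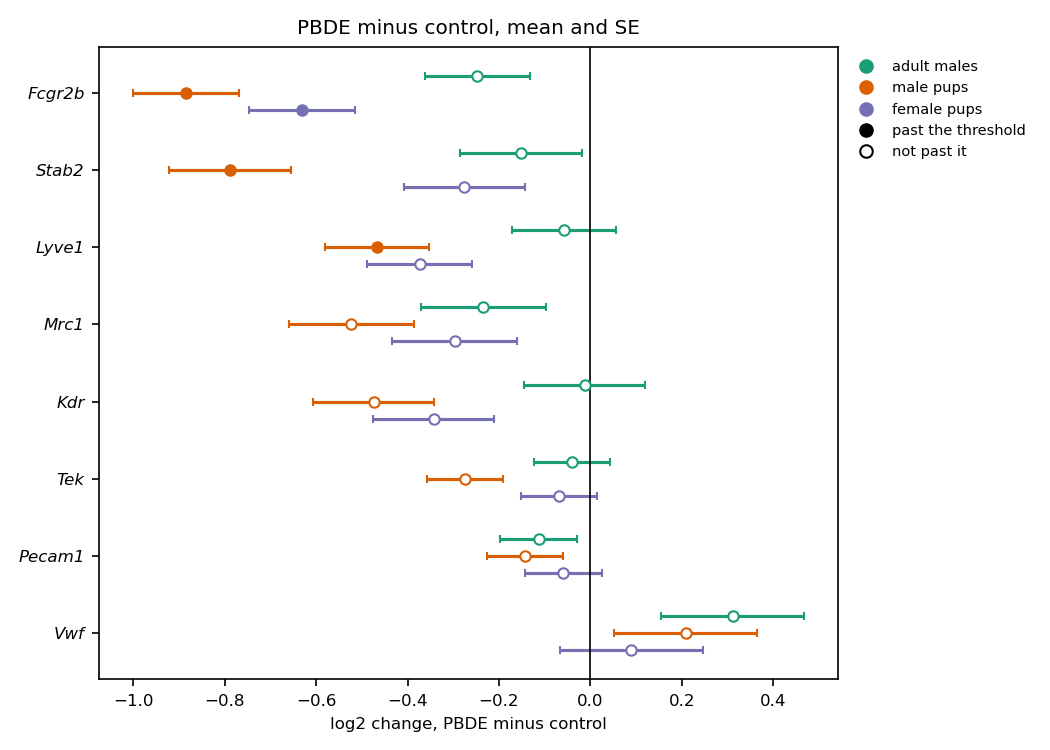
Log2 change, PBDE minus control, of the 8 genes in adult males, male pups and female pups, with the SE from the fit as bars (5 arrays per group). Filled points passed the adjusted p threshold (0.01 in pups, 0.05 in adults): Fcgr2b, Stab2 and Lyve1 in male pups and Fcgr2b in female pups.

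In adult males, none of the 8 genes passed the study's adult false discovery rate of 0.05 by limma, although 3.9% of all genes did. At an unadjusted p under 0.05 there was 1, Fcgr2b. It read 10.58, 10.23, 10.47, 10.35 and 9.78 in adult PBDE males, against 10.51, 10.54, 10.48, 10.53 and 10.58 in adult control males. The control rats were within 0.1 of one another, and the PBDE rats ranged from the control level to far below it. The change was -0.25 ± 0.12 (SE, n = 5 each, adjusted p = 0.281). Without replicate 5, the lowest PBDE array and the one least like its group, it was -0.12 (adjusted p = 0.659).

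Stab2 read 8.47, 8.40, 9.21, 9.01 and 8.81 in adult PBDE males, against 9.02, 8.89, 8.93, 8.66 and 9.15 in adult control males. The PBDE rats lay on both sides of the controls, and the change was -0.15 ± 0.13 (limma adjusted p = 0.631). Lyve1 averaged 10.42 ± 0.27 in adult PBDE males and 10.48 ± 0.12 in adult control males, and Kdr 10.06 ± 0.24 in adult PBDE males and 10.07 ± 0.26 in adult control males (SD, n = 5 each). Their changes of -0.06 ± 0.11 and -0.01 ± 0.13 were smaller than the SE. Without adult PBDE replicate 5 the changes of Lyve1 and Kdr were 0.033 and 0.0013. Mrc1 (-0.23 ± 0.14, adjusted p = 0.415), Pecam1 (-0.11 ± 0.08, adjusted p = 0.549) and Tek (-0.04 ± 0.08) were also negative. Vwf was positive, at 6.65 ± 0.25 in adult PBDE males and 6.34 ± 0.33 in adult control males (0.31 ± 0.16, adjusted p = 0.323). The median change was -0.09 over the 8 genes and 0.01 over all genes.

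The age by dose interaction in males asked whether the PBDE change of adults differed from that of pups, and a constant offset between array sets cancels in it. It uses the same arrays as the dose comparisons above. Fcgr2b passed at 0.64 ± 0.16 (SE, limma adjusted p = 0.0382), its change being -0.25 in adults and -0.89 in pups. It was the 1 of 8 to pass, beside 1.13% of all genes that passed as higher. All 8 values were positive, with a median of 0.35, against -0.01 over all genes. Without adult PBDE replicate 5 the value of Pecam1 was -0.023. Stab2 had the same size with a wider error (0.64 ± 0.19, adjusted p = 0.0795), Kdr had 0.46 ± 0.19 (adjusted p = 0.235), and Lyve1 had 0.41 ± 0.16 (adjusted p = 0.223). The second Lyve1 probe set passed at 0.61 ± 0.15 (adjusted p = 0.0335).

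These interaction calls stood close to the threshold. The Fcgr2b call was lost in 14 of 30 alternatives, at adjusted p between 0.0518 and 0.0755: without male control pup replicate 1, 3, 4 or 5, male PBDE pup replicate 2 or 5, adult control replicate 2, 3 or 4, or adult PBDE replicate 1, 3 or 4, with only the groups compared, and without shrinkage. Its value lay between 0.56 and 0.82 over the 30 alternatives. Without adult PBDE replicate 5 it was 0.76 (adjusted p = 0.00371). Stab2 passed without adult PBDE replicate 1 (adjusted p = 0.0421) or 2 (0.0321), or without the 2 arrays least like their groups (0.0481).

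Setting adults against pups gave a second pattern, in which the genes separated differently. In control males, 4 of 8 genes were lower in adults, Stab2, Lyve1, Pecam1 and Vwf, and 18.6% of all genes were called lower. All 8 changes were negative, with a median of -0.29, against -0.02 over all genes. Stab2 read 9.02, 8.89, 8.93, 8.66 and 9.15 in adult control males, against 10.03, 10.54, 10.08, 9.93 and 10.18 in male control pups. Every adult lay well below every pup, a separation that 13.4% of all genes showed in this direction. The change was -1.22 ± 0.13, or 2.33-fold (SE, n = 5 each, limma adjusted p = 6.07e-08). Age and array set cannot be told apart here. The RNA quality measure described below also separated these ages, at 0.32 to 0.78 in adult control males and 1.20 to 2.07 in male control pups. With it as a covariate, 3 of the 8 genes were called, and the Vwf call was lost (limma adjusted p = 0.219).

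Pecam1 read 7.26, 7.26, 7.14, 7.22 and 7.10 in adult control males, against 7.70, 7.75, 7.51, 7.68 and 7.63 in male control pups. The groups did not overlap (-0.46 ± 0.08, limma adjusted p = 1.47e-04). Lyve1 read 10.46, 10.56, 10.28, 10.51 and 10.57 in adult control males, against 10.98, 11.15, 10.81, 10.76 and 11.02 in male control pups. It did not overlap either (-0.47 ± 0.11, adjusted p = 0.00288), and its second probe set gave the same change. Vwf, at 6.34 ± 0.33 in adult control males and 6.78 ± 0.24 in male control pups, overlapped (-0.44 ± 0.16, adjusted p = 0.0388), and its call was lost in 10 of 20 alternatives (adjusted p 0.0527 to 0.219), among them those without male control pup replicate 1, 2 or 5 or adult control replicate 2, 3 or 4. Fcgr2b (-0.12 ± 0.12), Kdr (-0.06 ± 0.13), Tek (-0.13 ± 0.08) and Mrc1 (-0.14 ± 0.14) did not pass.

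In PBDE males the same contrast, on other arrays, called 2 of 8 lower and 2 of 8 higher, beside 13.6% of all genes lower and 5.2% higher. Stab2 was again lower, at 8.78 ± 0.35 in adult PBDE males and 9.36 ± 0.094 in male PBDE pups, without overlap, as for 9.69% of all genes (-0.58 ± 0.13, limma adjusted p = 0.00274). Pecam1 was lower by nearly the same amount as in controls (-0.43 ± 0.08, adjusted p = 5.99e-04). Fcgr2b was higher in adults, at 10.28 ± 0.31 in adult PBDE males and 9.77 ± 0.18 in male PBDE pups (0.52 ± 0.12, adjusted p = 0.00238). With the RNA quality covariate described below, the Fcgr2b value was 0.30 (adjusted p = 0.115). Kdr was also higher (0.40 ± 0.13, adjusted p = 0.04), as was its dim second probe set (0.40 ± 0.11, adjusted p = 0.0122). The deviations of these Kdr probe sets from their group means correlated at -0.417, so they did not move together within groups. The call of the main Kdr set was lost in 10 of 20 alternatives (adjusted p 0.0518 to 0.244), among them those without male PBDE pup replicate 1, 2, 4 or 5 or adult PBDE replicate 3 or 4.

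A contrast within 1 array set was available between adult PBDE males and female PBDE pups, in which age and sex cannot be told apart. Stab2 (-0.84 ± 0.13, limma adjusted p = 3.43e-05) and Pecam1 (-0.45 ± 0.08, adjusted p = 2.97e-04) were lower, both without overlap, beside 15.2% of all genes called lower and 11.2% lower without overlap. Stab2 and Pecam1 were thus called lower in each of the 3 age contrasts, of which the 2 in PBDE animals share the same adult arrays. Fcgr2b had 0.23 ± 0.12 here (adjusted p = 0.195), and without adult PBDE replicate 5 it passed at 0.35 (adjusted p = 0.0164). Lyve1 (-0.10 ± 0.11) and Kdr (0.13 ± 0.13) did not pass.

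**Figure D3:**
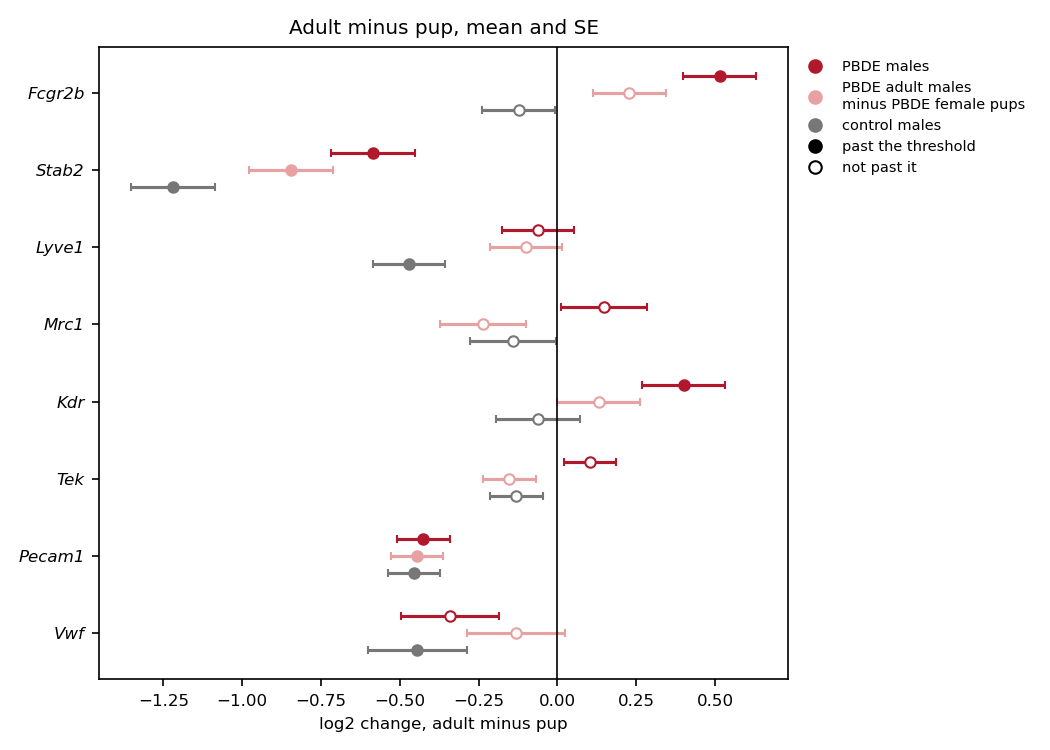
Log2 change, adult minus pup, of the 8 genes in PBDE males, between adult PBDE males and female PBDE pups, and in control males, with the SE from the fit as bars (5 arrays per group). Filled points passed an adjusted p of 0.05. Stab2 and Pecam1 are filled and negative in all 3 contrasts, and Fcgr2b and Kdr are filled and positive in PBDE males.

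By group mean, Fcgr2b ran from 9.77 in male PBDE pups through 10.06 in female PBDE pups, 10.28 in adult PBDE males, 10.53 in adult control males and 10.65 in male control pups to 10.69 in female control pups. The upper 3 groups were all controls, and no neighbouring pair that was tested passed. Stab2 ran from 8.78 in adult PBDE males and 8.93 in adult control males, which differed by less than their spread, through 9.36 in male PBDE pups, 9.62 in female PBDE pups and 9.90 in female control pups to 10.15 in male control pups. The 2 genes thus had different lowest groups: for Fcgr2b the PBDE pups, for Stab2 the adults of both doses. Of the others, Lyve1 was lowest in adult PBDE males (10.42) and highest in male control pups (10.94), and Pecam1 likewise (7.08 and 7.65). Kdr, Mrc1 and Tek were lowest in male PBDE pups (9.66, 9.21 and 7.86) and highest in female control pups (10.27, 9.89 and 8.19). Vwf was highest in male PBDE pups (6.99) and lowest in adult control males (6.34).

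Within groups, the deviations of the arrays from their group means were compared between genes, as a description. Over the 28 gene pairs the correlation ranged from -0.341 to 0.861 with a median of 0.291. Kdr, Mrc1 and Stab2 moved most closely together. Kdr and Mrc1 correlated at 0.861 (Spearman 0.877; 0.83 and 0.882 within the array sets), Stab2 and Kdr at 0.824 (Spearman 0.864; 0.762 and 0.865), and Stab2 and Mrc1 at 0.797 (Spearman 0.819; 0.689 and 0.866), each over 30 arrays. Without the 2 arrays farthest from the median these were 0.851, 0.814 and 0.776. Fcgr2b stood apart from Stab2 (0.00771), although both fell in male PBDE pups, and correlated with Lyve1 at 0.54 (Spearman 0.443; 0.341 without the 2 farthest arrays; 0.346 and 0.635 within the array sets). Arrays share RNA quality and normalisation, and such shared sources enter all of these values.

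**Figure D4:**
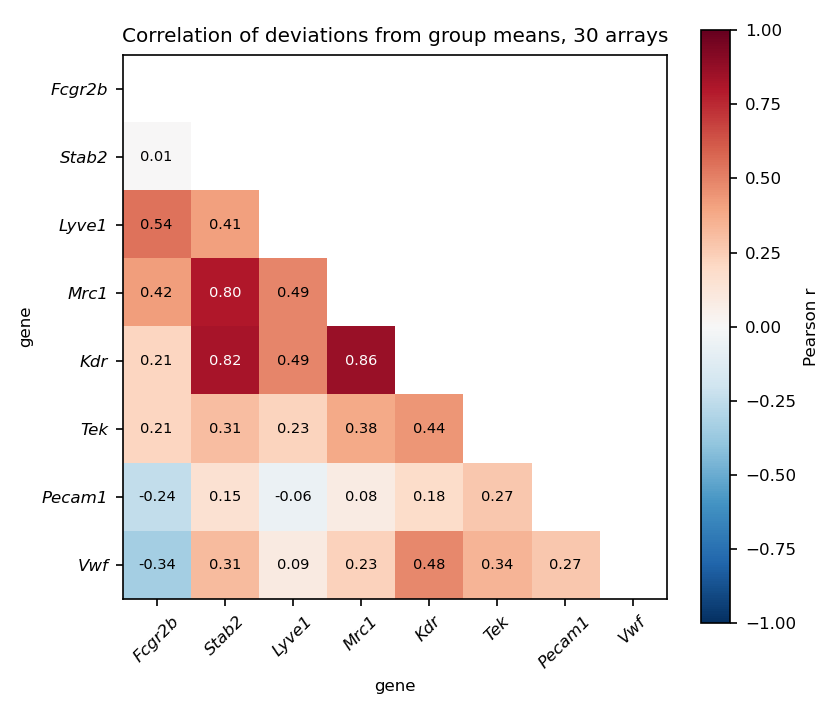
Pearson correlation of deviations from group means between each pair of the 8 genes, over 30 arrays in 6 groups. The cells of Kdr, Mrc1 and Stab2 are the darkest red, from 0.80 to 0.86, and the cell of Fcgr2b and Stab2 is near 0.

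Other genes of the sinusoidal and general endothelial repertoire were counted in the same fit. In male pups, 2 of 15 measured sinusoidal genes fell and none rose: Ehd3, a membrane trafficking protein (-0.65 ± 0.13, limma adjusted p = 0.00132), and Dnase1l3, a secreted nuclease (-0.52 ± 0.09, adjusted p = 1.35e-04). Their median was -0.21. Of 42 genes of endothelium in general, 13 fell and none rose, with a median of -0.25 and 30 negative values, and without male control replicate 3 the number was 8. Called with the largest changes were the adhesion molecules Vcam1 (-0.77 ± 0.20, adjusted p = 0.0091, lost in 14 of 20 alternatives) and Icam2 (-0.72 ± 0.12, adjusted p = 1.22e-04), the sialomucin Emcn (-0.66 ± 0.12, adjusted p = 3.52e-04) and the shear-responsive factor Klf4 (-0.64 ± 0.15, adjusted p = 0.00549, lost in 9 of 20). The background for these counts is the same 3.26% of all genes.

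In female pups, 1 of 15 sinusoidal genes fell, Dnase1l3 (-0.47 ± 0.09, limma adjusted p = 5.56e-04), beside 2.18% of all genes. Of the 42 general endothelial genes, 5 fell and none rose, led by the membrane lectin Clec14a (-0.66 ± 0.14, adjusted p = 0.00156) and the sphingosine 1-phosphate receptor S1pr1 (-0.46 ± 0.10, adjusted p = 0.00317). The number was 1 to 6 over the alternatives. In adult males none of the 42 changed by limma (7 at an unadjusted p under 0.05), and 1 of 15 sinusoidal genes was lower, the secreted growth factor Bmp2 (-0.39 ± 0.10, adjusted p = 0.0383, lost in 13 of 20 alternatives, among them without adult PBDE replicate 5, at -0.35 and adjusted p = 0.105; 2.04% of all genes were called lower). In the age by dose interaction Emcn passed (0.67 ± 0.17, adjusted p = 0.0335, lost in 10 of 30), as 1 of 42 genes, beside 1.13% of all genes called higher, and 34 of the 42 values were positive. The number was 0 to 5 over the alternatives, with 0 among others without male PBDE pup replicate 2, adult control replicate 3 or adult PBDE replicate 4, and 5 when the 2 arrays that least resembled their groups were left out. None of the 15 sinusoidal genes passed in this interaction (0 to 2 over the alternatives). Their values were 8 positive and 7 negative, with a median of 0.09. In control males, 23 of the 42 were lower in adults, beside 18.6% of all genes, and 16 with the Gapdh covariate. They were led by Ramp2, a partner of the adrenomedullin receptor (-0.98 ± 0.10, limma adjusted p = 7.17e-09). The 15 sinusoidal genes had 7 positive and 8 negative values there (median -0.04), and 8 and 7 in PBDE males (median 0.01). In PBDE males 10 of 42 were lower in adults, beside 13.6% of all genes, and 5 with the Gapdh covariate. The water channel Aqp1 was higher there (0.91 ± 0.18, adjusted p = 8.48e-04; 5.2% of all genes were called higher).

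Of the 10 measured ligands of endothelial receptors, Vegfc, a ligand of Flt4 and Kdr, rose in male PBDE pups (0.39 ± 0.07, limma adjusted p = 4.88e-04; background 4.23% of all genes called higher) and in female PBDE pups (0.35 ± 0.07, adjusted p = 0.00158; background 3.95%). No ligand was called in adults (1 at an unadjusted p under 0.05), where 1.86% of all genes were called higher.

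**Figure D5:**
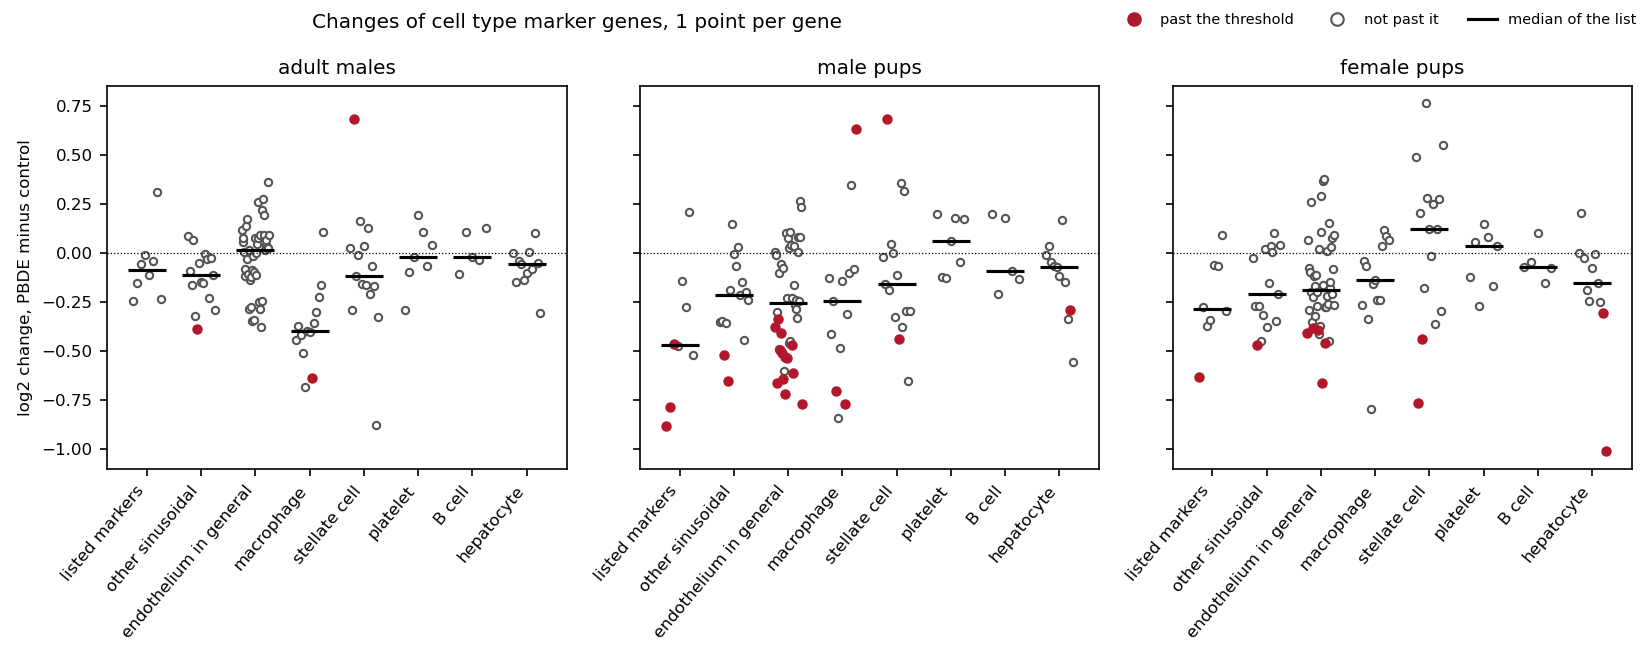
Log2 change, PBDE minus control, of single genes in cell type marker lists in adult males, male pups and female pups, 1 point per gene, with the list median as a bar. Filled points passed the adjusted p threshold. In male pups the medians are -0.47 for the 8 listed genes, -0.21 for other sinusoidal genes and -0.25 for endothelium in general.

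Markers of other cells that make some of these proteins were read beside them. Macrophages share Mrc1: in male pups 2 of 13 macrophage markers were lower (Aif1 and C1qa, beside 3.26% of all genes), 1 was higher (Cd14, beside 4.23%) and 11 values were negative (median -0.24). At an unadjusted p under 0.05 there were 6 of the 13. Without male control replicate 4 or 5, or male PBDE replicate 4, 1 of 13 was called, and C1qa was lost in 10 of 20 alternatives. Their summed level (log2) was 13.06 to 13.28 in male PBDE pups, against 13.18 to 13.51 in male control pups. In female pups none of 13 was called by limma (1 at an unadjusted p under 0.05). In adults 8 of 13 had an unadjusted p under 0.05, with 12 negative values and a median of -0.40. By limma 1 of 13 was called lower (Aif1, beside 2.04% of all genes). That call was lost in 10 of 20 alternatives, among them without adult PBDE replicate 5 (-0.54, limma adjusted p = 0.11), without adult PBDE replicate 2 or 4 or adult control replicate 2 or 4, and with the Gapdh covariate described below. B cells share Fcgr2b: none of 5 B cell markers changed in male pups by limma (1 at an unadjusted p under 0.05), and 4 of the 5 were below the median probe set. Platelets share Vwf and Pecam1: none of 7 platelet markers changed in male pups by limma (0 at an unadjusted p under 0.05), and 4 of the 7 were below the median probe set. The summed level of the 8 endothelial genes was 12.05 to 12.43 in male PBDE pups, against 12.70 to 12.98 in male control pups, and it was 12.22 to 12.60 in female PBDE pups and 12.70 to 12.98 in female control pups. Neither pair of ranges overlapped, but the sum holds the genes called above, and no background share was counted for it. Such a separation was not limited to endothelial lists. The summed ligands in male pups read 12.36 to 12.69 in PBDE and 12.75 to 12.84 in control pups, and the hepatocyte markers in female pups did not overlap either. The summed macrophage, B cell, platelet, stellate and erythroid markers overlapped in pups of both sexes. With age, 11 of 15 stellate cell and fibroblast markers and 4 of 8 erythroid markers (Hbb -1.07, Alas2 -1.64, Slc4a1 -1.99 and Ahsp -1.26) were lower in adult control males than in male control pups, beside 18.6% of all genes. Their part in the endothelial age differences was not tested.

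Single stellate cell and hepatocyte markers, out of 15 and 11 measured, were also called with dose. In male PBDE pups 1 stellate marker was higher by limma, Rgs5 (0.68 ± 0.16, lost in 8 of 20 alternatives). Another was lower, Acta2 (-0.44 ± 0.11, lost in 15 of 20), as was 1 hepatocyte enzyme, Cps1 (-0.29 ± 0.07, lost in 9 of 20). The background was 4.23% of all genes called higher and 3.26% called lower. In female PBDE pups 2 stellate markers were lower, Lrat (-0.77 ± 0.16) and Pdgfrb (-0.44 ± 0.11, lost in 10 of 20). Of the 15 stellate values there, however, 9 were positive, with a median of 0.12. The hepatocyte enzymes Ass1 (-1.01 ± 0.17) and Cps1 (-0.31 ± 0.07, lost in 9 of 20) were also lower, beside 2.18% of all genes. In adult PBDE males Rgs5 was higher (0.68 ± 0.16, lost in 3 of 20), beside 1.86% of all genes. The summed hepatocyte level (log2) was 17.79 to 17.85 in female PBDE pups and 17.92 to 17.95 in female control pups. The part of these cells in the endothelial values was not tested.

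RNA quality was read as the 3' minus 5' difference of the Gapdh probe sets (log2), which is larger in degraded RNA. It averaged 2.09 ± 0.65 in male PBDE pups, against 1.61 ± 0.33 in male control pups, 1.93 ± 0.30 in female PBDE pups and 1.26 ± 0.50 in female control pups, and 1.17 ± 0.62 in adult PBDE males and 0.62 ± 0.18 in adult control males (SD, n = 5 each). Two-sided exact permutation tests gave p = 0.198, 0.0397 and 0.0238 (0.198, 0.0595 and 0.0595 adjusted over 3 comparisons). Within groups Fcgr2b was lower where this difference was larger (r = -0.557, Spearman -0.51; -0.309 without the 2 arrays farthest from the median), less so in the set of male pups (-0.229) than in the other (-0.882). For Stab2 r was -0.0428, for Lyve1 -0.475 and for Pecam1 0.48, the opposite sign. With the difference as a covariate, the male pup changes were -0.78 for Fcgr2b (limma adjusted p = 1.2e-05), -0.78 for Stab2 (adjusted p = 4.91e-04) and -0.37 for Lyve1 (adjusted p = 0.0244), and Fcgr2b in female pups was -0.48 (adjusted p = 0.00647).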

How the data were processed

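Total liver RNA (50 ng, two-cycle 3' labelling, per the labels' protocols) was read on 30 single-colour arrays. The deposited table holds log2 expression values, which the authors made with RMA, per the submitters' processing notes; the software version is not given in the sources used here. Of 31099 probe sets, 57 control sets were left out, and 31042 were tested with no filter on dim sets and no further normalisation. Platform annotation gave 1 gene to 20826 sets, several to 436 and none to 9780.

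Group means were compared with limma 3.58.1 (R 4.3.3) over all 30 arrays, with moderated variances shared by the 6 groups, and p-values were adjusted by Benjamini-Hochberg over all 31042 probe sets. The study's own fit was R/maanova, and limma stands in its place; the thresholds of 0.01 in pups and 0.05 in adults are those of the series design. The 2 adult against pup contrasts within dose and the contrast of adult PBDE males with female PBDE pups are not pairwise comparisons of that design. The fit was tested on simulated data. Exact permutation tests used scipy 1.17.1. The number of arrays limits the precision.

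The members, the marker lists and the tests were chosen with earlier results of these data known. All members were named with every probe set annotated to them alone; from each list up to 4 genes with the largest change among those past the threshold could be named. Likeness was the Pearson correlation of deviations from group means, among genes above the median probe set. Gene positions and upstream windows come from RefSeq (GRCr8); probe sequences were not used here, so cross-hybridisation between Fcgr2b and related Fc receptor genes was not tested.

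Alternatives were leaving out each array, a replicate block, only the groups compared, renewed quantile normalisation, median centring, a filter at the median level, trended and robust eBayes, no shrinkage, the Gapdh covariate, leaving out the 2 arrays least like their groups, and the mean of all probe sets of a gene.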

Additional observations from a re-analysis of the deposited data

Results flagged for a closer look

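Among 60 sets of 5 arrays (10 probe sets in 6 groups), 1 held an array far from the other 4: for Fcgr2b in female control pups, replicate 5 was the lowest at 10.46. Its gap to the nearest array was 0.775 of the range of the group, above Dixon's critical value of 0.71. Chance alone flags about 1 in 20 such groups. The Fcgr2b change in female pups was called with and without that array.

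The PBDE changes of adult and pup males differed by the interaction test for Fcgr2b, by 0.64 on the log2 scale (adult change minus pup change, limma adjusted p = 0.0382), and for the second Lyve1 probe set, by 0.61 (adjusted p = 0.0335). The main Lyve1 probe set gave 0.41 (adjusted p = 0.223). The Fcgr2b call was lost in some of the 30 alternatives, at a limma adjusted p of up to 0.0755.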

How the results depend on the processing

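Of the members' changes under the alternatives, 1705 kept their side of the threshold, 44 lost the call and 11 gained one. In 35 cases, over 13 results, an uncalled value changed sign, and no called member value did. Leaving out 1 array gave 2 to 4 called members in male pups, 1 to 1 in female pups, 0 to 0 in adults, in both sex comparisons and in sex by dose, 0 to 2 in age by dose, 3 to 4 in control and 3 to 4 in PBDE males by age, and 2 to 3 between adult PBDE males and female PBDE pups. In age by dose, 1 called member became 0 with only the groups compared, 0 without shrinkage, and 2 after leaving out the 2 arrays that least resembled their groups. In PBDE males by age, 4 became 2 with the Gapdh covariate. With the replicate number as a block, male pups kept a count of 3 called members and PBDE males by age had 3, the Kdr call being lost (adjusted p = 0.0542). Deviations of arrays in different groups correlated at a mean of 0.00417 for the same replicate number and -0.000906 for other numbers. Of the 75 same-numbered pairs 18 correlated above 0.1, and other pairs were not counted in this way. The hepatocyte marker Hnf4a turned from -0.45 to 0.10 between adult and pup control males when all its probe sets were averaged. Called probe sets in adults numbered 924, against 597 without adult PBDE replicate 4, 269 with only the groups compared and 494 without the 2 arrays; in age by dose 579, against 365 without male control pup replicate 5, 376 without male PBDE pup replicate 4 and 373 without adult PBDE replicate 4; between PBDE pups 14, against 8 with only the groups compared; in sex by dose 0, against 1 without male control pup replicate 2 or male PBDE pup replicate 3. With the covariate, 7146 became 4305 in control males and 4364 became 2875 in PBDE males by age. The cause was not tested.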

Other observations

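The genes whose deviations from the group means were most like those of a member, over 30 arrays and among 9638 genes above the median level, were in part other endothelial genes. For Fcgr2b these were Dnase1l3 (r = 0.805, Spearman 0.773; 0.753 without the 2 arrays farthest from the median), Plpp1 (0.789) and Tm2d1 (0.75). Dnase1l3, which was in the sinusoidal list, was also called lower in PBDE pups of both sexes. For Tek they were Col13a1 (0.655), Cd93 (0.62), an endothelial surface protein, and Mapk12 (0.611).

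For Mrc1 they were Kdr, Stab2 and Dab2 (0.753), an endocytic adaptor, and for Lyve1 they were Ms4a6a (0.749), Axl (0.725) and Dennd5a (0.718). For Vwf they were Med12 (0.793), Adgrl2 (0.76) and Abca1 (0.738), and for Pecam1 they were Rbm3 (0.712), Apbb1ip (0.704) and Zdhhc18 (0.685). For Stab2, Eif4g3 (0.808) stood between Kdr and Mrc1, and for Kdr, Wdfy3 (0.818) followed Mrc1 and Stab2.

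The 2 Kdr probe sets did not move together within groups (r = -0.417 over 30 arrays), and the second set was below the median probe set on every array.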
